A study of Mus musculus with 105 samples.

Results

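The 2 strands of miR-21a, mmu-miR-21a-5p and mmu-miR-21a-3p, were followed through every small RNA library of a mouse labelling study, 2 of the 1013 mature miRNAs counted. They were chosen by name and not by a rule on measured values, but with earlier results of these data known. The study exposed cells to 5-ethynyluridine (5EU), which cells build into RNA in place of uridine, for increasing times, captured the labelled RNA, and sequenced the captured small RNAs (EU libraries, 47) beside the unselected small RNAs of the same cells (input libraries, 47). Input counts give the standing amount of a miRNA, and EU counts give what was made since labelling began.

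All lines were from mice labelled C57BL/6 or C57BL/6J. Contact-inhibited mouse embryonic fibroblasts (MEFs) had been held at confluence for 5 days before labelling, and gave 2 time courses, to 168 h (1 week) with 400 µM 5EU. Dividing MEFs were passaged throughout and gave 2 courses, to 72 h at the same dose. Embryonic stem cells of line v6.5, grown in LIF with the inhibitors PD0325901 and CHIR99021, gave 2 courses to 24 h with 125 µM 5EU. Contact-inhibited MEFs lacking Cyrano gave 1 course, from 2 to 168 h, also with 400 µM 5EU. Cyrano is a long noncoding RNA known for directing the destruction of miR-7. Unlabelled (0 h) libraries existed for the first course of each of the 3 wild-type lines. Poly(A) RNA was sequenced in 2 libraries for each wild-type line. The course is the replicate here, except in trends over labelling time and in fits library by library. The labels do not tie courses to separate animals, so the other p-values measure only the spread between courses, which may be technical. Trend p-values measure the scatter of libraries within courses, for the knockout within 1 course, and those libraries are not independent cultures.

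A miRNA hairpin is cut by Drosha in the nucleus and by Dicer in the cytoplasm into a short duplex. One strand of the duplex is kept by an Argonaute protein and guides it to messenger RNAs, and the other, the passenger strand, is usually discarded and degraded. miR-21 is among the best-known miRNAs of fibroblasts, where it is abundant, is transcribed from within the gene Vmp1 under the control of AP-1 and STAT3, and represses growth inhibitors such as Pdcd4. Its guide is the 5p strand.

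The hairpin and the mature strands are shown first, to set out how the strands differ in sequence. The RefSeq hairpin (GRCm38.p6, chr11:86584067-86584158, minus strand) is 92 nt long, and the capitals below mark the mature strands.
miR-21a hairpin: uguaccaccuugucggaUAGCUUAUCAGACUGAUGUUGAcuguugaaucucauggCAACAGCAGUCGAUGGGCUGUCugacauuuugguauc
In the mature strands the capitals mark the seed, bases 2 to 8, which pairs with targets.
miR-21a-5p: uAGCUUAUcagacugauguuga
miR-21a-3p: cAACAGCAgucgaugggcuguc
miR-21c-5p: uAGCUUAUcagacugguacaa
The 5p strand (chr11:86584120-86584141, minus) held 8 uridines, the bases that 5EU replaces, and was 36.4% G or C. The 3p strand (chr11:86584082-86584103, minus) held 4 uridines and was 59.1% G or C. In the lowest-energy fold of the hairpin by RNAfold (-46.2 kcal/mol), 19 bases of each strand paired with the other. Among the 1679 mature mouse miRNAs of the RefSeq table, the 5p seed was shared only with miR-21c, shown above because its reads could be mistaken for miR-21a, and the 3p seed with none. miR-21c had 0 counts in every table. The hairpin lay within the span of Vmp1 (chr11:86583858-86683836), 209 bases from its lower-coordinate end. Whether that position is exonic or intronic was not analysed here.

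In total, input libraries held 912688 to 9117300 miRNA counts and EU libraries after 0 h held 7922 to 2463188, so EU values carry more counting error. Levels are given as CPM, a miRNA's count per 1000000 miRNA counts of the library, and a course's level is the CPM of its counts summed over times. The 5 marker miRNAs of stem cells summed to 353508 and 363548 CPM in the stem cell courses and to between 0.509 and 7.20 CPM elsewhere. The 4 epithelial marker miRNAs summed to 134 CPM in the knockout, 10.7 and 5.94 CPM in the contact-inhibited courses and 4272 and 3036 CPM in stem cells. Their part in the results was not tested. The Cyrano deletion itself cannot be checked in small RNA counts, but miR-7a-5p, the miRNA that Cyrano targets, stood at 2816 CPM in the knockout and at 82.8 and 82.7 CPM in the contact-inhibited courses.

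The guide strand was the most abundant miRNA of both wild-type fibroblast lines. In contact-inhibited MEFs miR-21a-5p stood at 135043 and 75346 CPM in the 2 courses (mean 105195 ± 42212 SD, n = 2). In dividing MEFs it averaged 164778 ± 4792 CPM (n = 2). The next miRNA, miR-125b-5p, averaged 90927 CPM in contact-inhibited and 120164 CPM in dividing MEFs. The third was miR-143-3p at 40436 CPM in contact-inhibited MEFs and miR-29a-3p at 37614 CPM in dividing MEFs. In the Cyrano knockout miR-21a-5p ranked 5 at 42361 CPM, where miR-125b-5p (88959 CPM), miR-199ab-3p (59939 CPM) and miR-26a-5p (53503 CPM) led. In stem cells it ranked 48 at 2939 ± 437 CPM (n = 2). There miR-294-3p, miR-291a-3p and miR-295-3p, of the cluster that marks pluripotent cells, led at 116006, 103481 and 100600 CPM. The order of levels was thus dividing MEFs, contact-inhibited MEFs, knockout MEFs and stem cells, and the stem cells stood apart from every fibroblast course.

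**Figure D1:**
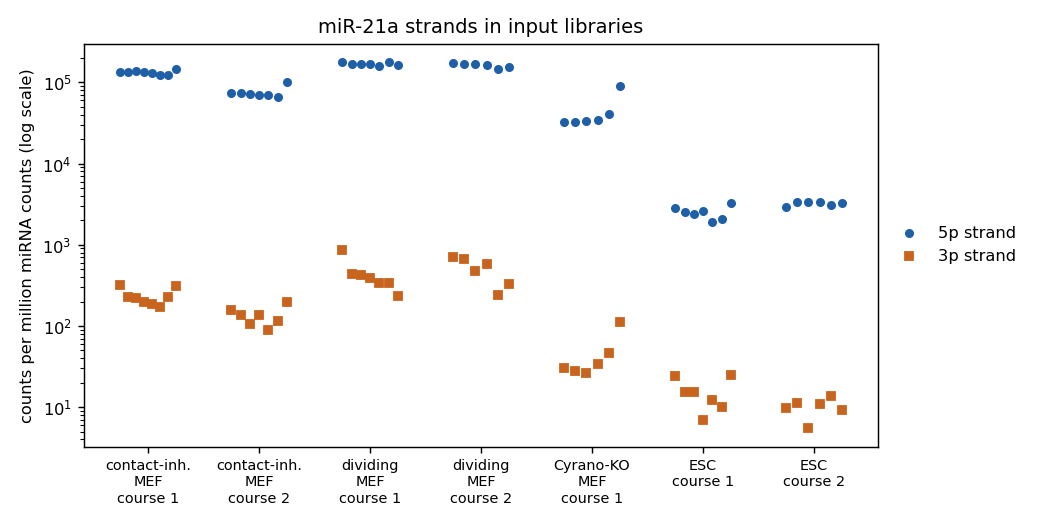
Input CPM (log scale) of each miR-21a strand in every input library, in order of labelling time within each course. Circles are the 5p strand and squares the 3p strand. The stem cell libraries lie below all fibroblast libraries for both strands, and the last knockout library (168 h) lies above the 5 earlier ones.

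The passenger strand followed the same order at a far lower level. miR-21a-3p averaged 435 ± 59.4 CPM in dividing MEFs, 186 ± 74.1 CPM in contact-inhibited MEFs and 13.4 ± 5.02 CPM in stem cells (n = 2 each), and stood at 43.8 CPM in the knockout. By level it ranked 183 in contact-inhibited MEFs, 246 in the knockout and 445 in stem cells. Mean CPM in dividing MEFs exceeded that in stem cells 56.1-fold for 5p and 32.4-fold for 3p. Over contact-inhibited MEFs it was 1.57-fold for 5p and 2.34-fold for 3p.

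Tested with edgeR's quasi-likelihood fit over all miRNAs, both strands were lower in stem cells than in either fibroblast line. Against dividing MEFs, 5p fell by 6.05 (log2, SE 0.39, adjusted p = 2.55e-04) and 3p fell by 5.24 (SE 0.64, adjusted p = 0.00163), in a comparison where 47.8% of 812 miRNAs were called. Against contact-inhibited MEFs, 5p fell by 5.83 (SE 0.39, adjusted p = 2.58e-04) and 3p fell by 4.46 (SE 0.62, adjusted p = 0.00215), where 56.5% were called. Between contact-inhibited and dividing MEFs neither strand passed: the log2 difference was -0.22 (SE 0.32, adjusted p = 0.803) for 5p and -0.79 (SE 0.54, adjusted p = 0.525) for 3p. edgeR called 0% of the 812 miRNAs there, with 158 at an unadjusted p under 0.05, and DESeq2 called 71 as higher and 41 as lower.

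Between the knockout and wild-type contact-inhibited MEFs the strands again did not pass in edgeR. The log2 difference was -1.19 for 5p (SE 0.41, adjusted p = 0.365) and -1.96 for 3p (SE 0.72, adjusted p = 0.407), and 0.862% of miRNAs were called, miR-7a-5p among them. Without contact-inhibited course 2, which leaves 1 course on each side and takes the spread from the other lines, the differences were -1.53 (adjusted p = 0.0225) and -2.31 (adjusted p = 0.0333). Comparing libraries at the 6 shared times instead gave -1.35 (adjusted p = 0.0059) and -2.09 (adjusted p = 4.95e-04), but libraries of 1 course are not independent cultures.

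The miRNAs whose input levels followed the 5p strand most closely over the 7 courses were miR-29a-3p (Pearson r = 0.995 of log2 CPM), miR-29a-5p (0.993) and miR-29b-3p (0.992), among 299 with at least 100 CPM on average. For 3p they were miR-29b-3p (0.966), miR-21a-5p (0.952) and miR-29a-5p (0.941). The points share line and library totals, and fibroblast and stem cell courses form separate clusters, so the values are descriptions.

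Over labelling time, the standing 5p level showed no called trend in wild-type MEFs, but its last library was the highest in both contact-inhibited courses. In contact-inhibited course 1 it read 134240, 135103, 137598, 132881, 130128, 124574, 121578 and 147616 CPM at 0, 1, 2, 4, 8, 24, 72 and 168 h. In dividing course 1 it read 176647, 168412, 166424, 166311, 158362, 176430 and 162014 CPM from 0 to 72 h. Contact-inhibited course 2 read 74465, 74616, 72870, 69521, 69396, 65354 and 99843 CPM from 1 to 168 h, and dividing course 2 ranged from 145537 to 175078 CPM. The slope per doubling of (hours + 1) was 0.04 in contact-inhibited MEFs (edgeR adjusted p = 0.162, 26% of 524 miRNAs called) and -0.01 in dividing MEFs (adjusted p = 0.767, 22.1% of 475 called). In stem cells it was -0.01 (adjusted p = 0.933, 4.15% of 579 called).

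The knockout course also had its highest values at its end. Its 5p strand read 32737, 32094, 33610, 34286, 41118 and 89741 CPM from 2 to 168 h, and its 3p strand 30.2, 27.5, 26.6, 34.0, 46.9 and 113 CPM. The 168 h library was the highest for both strands. The slope was 0.28 for 5p (adjusted p = 0.0053) and 0.38 for 3p (adjusted p = 0.00291), where 18.4% of 521 miRNAs were called. Without 168 h it was 0.11 (adjusted p = 0.0741) and 0.20 (adjusted p = 0.0638), so both calls rest on that library. In DESeq2 the 5p slope did not pass either (0.28, adjusted p = 0.109), and the 3p slope did (0.37, adjusted p = 7.51e-07).

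In dividing MEFs the standing 3p strand fell over labelling and 5p did not pass the test. Course 1 read 873, 433, 422, 388, 338, 338 and 236 CPM from 0 to 72 h, and course 2 read 703, 676, 473, 572, 242 and 326 CPM from 1 to 72 h. The unlabelled library was the highest of course 1. The slope fell by 0.23 per doubling (SE 0.04, adjusted p = 3.64e-04). In contact-inhibited MEFs the 3p slope was 0.04 (adjusted p = 0.422), with 89.8 to 320 CPM over both courses.

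Newly made miR-21a was compared at 2 and 4 h together, the earliest times every course shares, without subtraction of 0 h counts. Labelled 5p stood at 215953 and 205741 CPM in dividing MEFs (mean 210847 ± 7221 SD, n = 2), at 74915 and 50914 CPM in contact-inhibited MEFs (62915 ± 16971, n = 2), at 3183 and 3415 CPM in stem cells and at 31940 CPM in the knockout. The 2 fibroblast lines did not overlap, and the mean was 3.35-fold higher in dividing MEFs. In edgeR the difference of contact-inhibited from dividing MEFs was -1.90 (log2, SE 0.30, adjusted p = 0.0318), where 3.19% of 502 miRNAs were called. The call was lost without either dividing course (adjusted p = 0.204 and 0.321) and without either stem cell course (adjusted p = 0.184 and 0.0778), and kept without either contact-inhibited course and without the knockout.

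Labelled 3p at the same times stood at 572 and 930 CPM in dividing MEFs, 603 and 304 CPM in contact-inhibited MEFs and 126 CPM in the knockout. The 2 wild-type lines overlapped, and the log2 difference of -0.90 (SE 0.69) did not pass in edgeR (adjusted p = 0.589). Stem cells gave 1 labelled 3p count of 124052 miRNA counts in both courses, against 732 of 949726 in dividing MEFs, a 95.6-fold difference (95% exact interval 17.1 to 3782, counting error only). Against contact-inhibited MEFs (556 of 1471434) it was 46.9-fold (8.38 to 1855). The labelled 5p strand was lower in stem cells by edgeR, at -6.27 against dividing MEFs (adjusted p = 9.66e-05, 38.8% called) and -4.37 against contact-inhibited MEFs (adjusted p = 1.20e-04, 49% called). In the knockout the 5p difference was -0.62 and the 3p difference -1.50 (adjusted p = 0.691 for both), where edgeR called 0% of miRNAs, 27 had an unadjusted p under 0.05, and DESeq2 called 4.

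Set beside its standing level, the new 5p strand differed between lines. The ratio of EU to input CPM at 2 and 4 h was 0.555 and 0.690 in contact-inhibited MEFs, 1.30 and 1.22 in dividing MEFs, 1.28 and 1.01 in stem cells and 0.985 in the knockout. Contact-inhibited courses were the lowest, below every other course. For 3p the ratio was 2.93 and 2.50 in contact-inhibited MEFs, 1.43 and 1.64 in dividing MEFs and 4.35 in the knockout. The 3p ratio was above 1 in all 5 fibroblast courses, and the 5p ratio in the dividing ones.

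The edgeR test of EU against input depended on how libraries were scaled. With TMM, the 5p difference of EU from input was -2.20 in contact-inhibited MEFs (SE 0.33, adjusted p = 0.00166, 24% of 675 miRNAs called) and -2.04 in the knockout (adjusted p = 0.0288, 9.48% called). The dividing MEF difference was -0.25 (adjusted p = 0.750, 5.78% called) and the stem cell one 0.20 (adjusted p = 0.912, 0.889% called). Scaled by library totals alone they became -0.73 (adjusted p = 0.154) and -0.02 in the first 2 lines. With TMM the contact-inhibited call was also lost without contact-inhibited course 1 (-0.81, adjusted p = 0.337) and without dividing course 1 (-1.24, adjusted p = 0.152). The knockout call was lost on leaving out any 1 of the 6 other courses (-2.04 to -0.51). EU and input of a course come from the same cells, so the course was also used as a block. With the block and totals the contact-inhibited 5p difference was -0.69 (adjusted p = 6.66e-05), and 3p was higher in EU by 1.44 in contact-inhibited MEFs (adjusted p = 1.45e-05) and by 2.12 in the knockout (adjusted p = 2.54e-05). With TMM and no block the 3p differences were -0.05 and 0.11 (adjusted p = 1 for both).

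The difference between lines was tested as an interaction. Contact-inhibited against dividing MEFs gave -1.95 for 5p (edgeR adjusted p = 0.873). edgeR called 0% of the 675 miRNAs there, 31 had an unadjusted p under 0.05, and DESeq2 called 1 as higher and 1 as lower. With the course block it was -1.94 (adjusted p = 5.73e-07), and with block and totals -1.02 (adjusted p = 0.001). Stem cells against contact-inhibited MEFs gave 2.41 (SE 0.46, adjusted p = 0.0473, 0.593% called), and 0.90 (adjusted p = 0.607) with totals. That call was lost on leaving out any 1 course, and the sign turned without contact-inhibited course 1 (-0.68) and without dividing course 1 (-0.25).

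A ratio of the 2 strands within a library needs no scaling between libraries. At 2 and 4 h the 3p share of miR-21a counts was 0.798% in EU against 0.152% in input in contact-inhibited course 1, and 0.593% against 0.164% in course 2. It was 0.264% against 0.240% and 0.450% against 0.336% in the dividing courses, and 0.392% against 0.0890% in the knockout. The 3p share was higher in new RNA in each of the 5, by 5.28, 3.63, 1.10, 1.34 and 4.43-fold. The dividing courses shifted least, and their direction turned with the time. At 4 h alone the share was 0.160% in EU against 0.233% in input in dividing course 1 and 0.194% against 0.281% in course 2, while it stayed higher in EU in the contact-inhibited and knockout courses.

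Over the 5 fibroblast courses the log2 ratio of 3p to 5p in EU exceeded that in input by 1.39 ± 1.04 (mean ± SD, n = 5), higher in 5 of 5 (exact two-sided sign-flip permutation p = 0.0625, the smallest 5 courses allow). With the stem cell courses the mean was 1.17 ± 0.94 (n = 7). Those 2 courses rest on 0 and 1 EU counts of 3p, and the 0.5 added to each count sets the sign of the first (0.34, or -0.24 against input summed over all times), so no test over 7 courses is read here.

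The share then fell with every further labelling time. In contact-inhibited course 1, 3p made up 2.02, 0.931, 0.715, 0.318, 0.181, 0.111 and 0.0474% of labelled miR-21a from 1 to 168 h. In course 2 it made up 1.73, 0.735, 0.371, 0.273, 0.0866, 0.0566 and 0.0382%. Every step was downward in both.

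Dividing MEFs began lower and fell likewise, from 0.739 to 0.0305% in course 1 and from 1.24 to 0.0431% in course 2 between 1 and 72 h. The knockout read 0.663, 0.227, 0.181, 0.0432, 0.0282 and 0.0194% from 2 to 168 h. From first to last time the share fell 42.6 and 45.3-fold in contact-inhibited, 24.2 and 28.7-fold in dividing and 34.1-fold in knockout MEFs.

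At the last time the labelled 3p to 5p ratio lay below that of input by 4.42 and 5.15-fold in contact-inhibited, 4.67 and 4.81-fold in dividing and 6.35-fold in knockout MEFs. The mean log2 difference was -2.33 ± 0.20 (n = 5, lower in 5 of 5, exact sign-flip p = 0.0625, the smallest possible). The EU share thus started above input and ended below it in all 5 courses. At 24 h alone the fibroblast mean was -0.93 (exact p = 0.125).

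**Figure D2:**
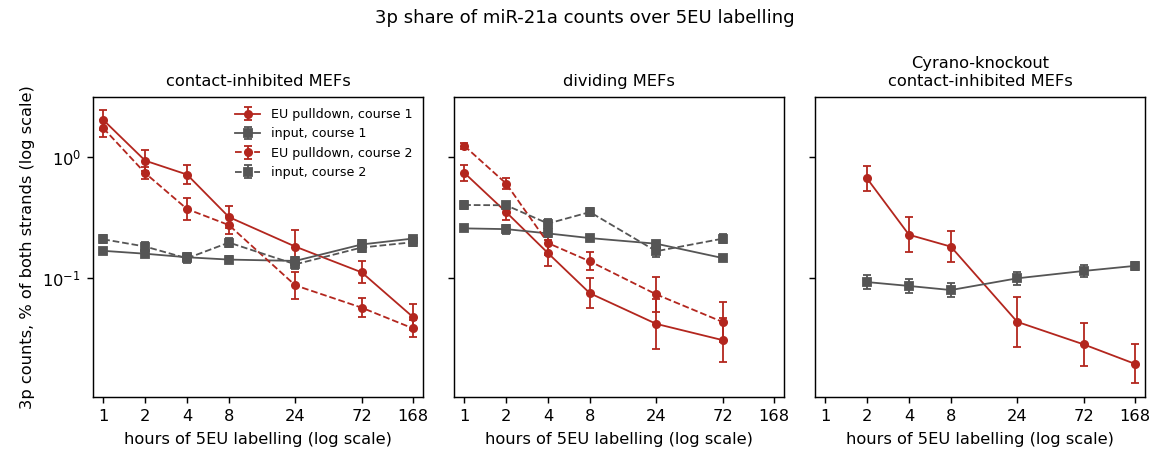
The 3p strand as a percentage of all miR-21a counts (log scale) against hours of labelling (log scale), with 95% binomial intervals that cover counting error only. In each fibroblast course the EU line starts above the input line and crosses below it by the last time.

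Stem cells gave too few labelled 3p counts to follow: 1 of 791 miR-21a counts in course 1 (0.126%, 95% exact interval 0.00320 to 0.702%) and 2 of 1569 in course 2 (0.127%, 0.0154 to 0.460%) over all labelled times. Input 3p shares in stem cells ran from 0.161 to 0.850%.

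In edgeR, the labelled 5p strand rose as a share of all labelled miRNAs over time where cells did not divide. The slope per doubling was 0.29 in contact-inhibited MEFs (SE 0.03, adjusted p = 1.17e-06, 62.3% of 406 miRNAs called) and 0.58 in the knockout (SE 0.05, adjusted p = 3.93e-05, 58% of 367 called). It was -0.05 in dividing MEFs (SE 0.02, adjusted p = 0.0315, 60.3% of 360 called), a call lost without either course and in DESeq2. In stem cells it was 0.03 (adjusted p = 0.717, 28.5% of 239 called). Labelled 3p fell by 0.52 in contact-inhibited (adjusted p = 9.95e-06) and by 0.99 in dividing MEFs (adjusted p = 2.17e-06). Its knockout slope of -0.29 did not pass (adjusted p = 0.0582), and was -0.48 (adjusted p = 0.0318) without 168 h.

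Sequencing standards added to each EU sample after capture allowed labelled amounts to be compared within a course. Between first and last time labelled 5p per standard count grew 52.6 and 84.0-fold in contact-inhibited MEFs, 33.2-fold in the knockout, 5.71 and 2.35-fold in dividing MEFs and 15.3 and 9.44-fold in stem cells. Labelled 3p changed 1.21, 1.82 and 0.969-fold in the first 3 of these courses, and in dividing MEFs to 0.234 and 0.0812 of its starting value. Labelled 5p per standard was highest at the last time in every course but dividing course 2, which read 153 at 8 h and 80.7 at 72 h. In the 0 h library of contact-inhibited course 1, 5p per standard was already 49.3% of the 1 h value, against 3.31% in dividing MEFs and 7.64% in stem cells. That course read 0.0115 at 0 h, 0.0233 at 1 h, 0.0296 at 2 h and 0.0516 at 4 h, so its early points carry much background. The 3p share of its 0 h library was 0.181%. The levels and strand ratios at 2 and 4 h above had no 0 h counts subtracted.

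**Figure D3:**
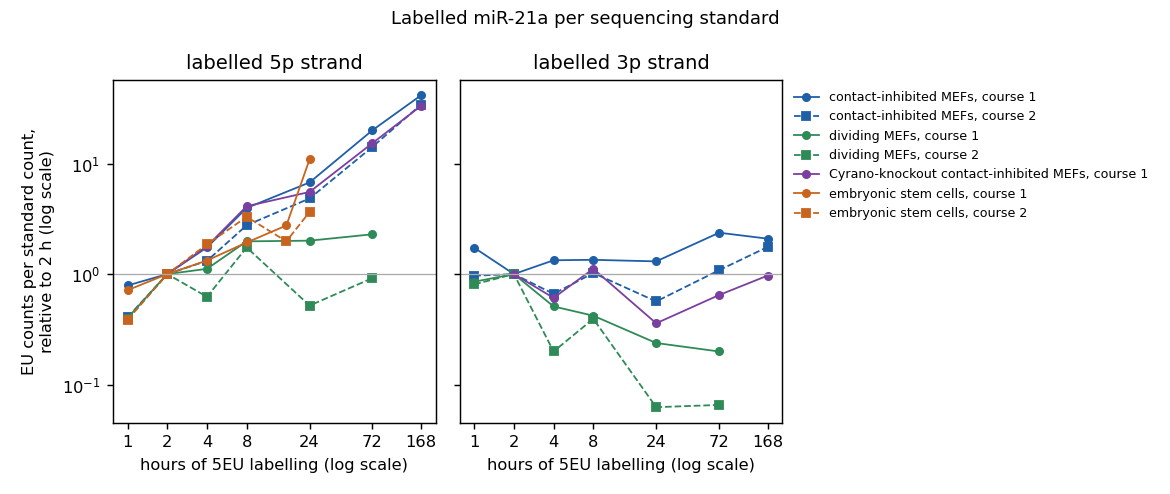
EU counts per sequencing standard count relative to the 2 h library of the same course (log scale) against hours of labelling (log scale), for the 5p strand (left) and the 3p strand (right). Labelled 5p climbs to the last time in contact-inhibited and knockout MEFs, whereas labelled 3p ends between 0.969 and 1.82 times its first value there and falls in dividing MEFs.

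Half-lives were fitted from the approach of labelled 5p per standard to a plateau, without correction for dilution by division. They were 130 h (95% interval from 57.2 h to the fit's upper limit of 1680 h) and 65.3 h (35.2 to 189) in contact-inhibited MEFs, 48.0 h (27.0 to 111) in the knockout, 3.09 h (1.92 to 4.80) and 0.952 h (0.464 to 1.60) in dividing MEFs, and 26.5 h (7.81 to the limit of 240) and 3.92 h (2.30 to 7.05) in stem cells. In dividing course 2, labelled 5p per standard read 34.3, 87.7, 54.6, 153, 45.5 and 80.7 from 1 to 72 h, not an approach to a plateau. The weighted squared error of the fit (chi-square) was 24.4 there and 20.5 in stem cell course 1, against 2.63 to 10.0 in the other courses. The values and intervals of those poorly fitted courses are therefore insecure. In the non-dividing courses 95.3, 95.2 and 97.8% of fitted miRNAs had shorter half-lives, against 47.2 and 37.5% in the dividing courses. miR-21a-5p was thus among the most slowly turned over miRNAs of non-dividing cells by this measure.

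The 3p strand gave the lowest value allowed, 0.25 h, in all 5 fibroblast courses, with upper bounds of 0.331 to 1.10 h. Its labelled amount per standard at the last time was at most 1.82 times that at the first. A falling amount, as in dividing MEFs, is not described by a curve that approaches a plateau, so the value is a limit and not a measured half-life. The 5p value lay 3.81 to 518-fold above that limit (mean log2 6.04), and since no value can lie below the limit, the direction is not tested.

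In limma over all miRNAs the 5p half-life was longer in contact-inhibited than in dividing MEFs by 5.74 on the log2 scale (adjusted p = 4.17e-04, 41.6% of 322 miRNAs called). Of the called miRNAs 134 were longer and 0 shorter, so this direction was shared by all of them. Without dividing course 2 the difference was 4.89 and the call was lost. The other contrasts did not pass: 2.57 for stem cells minus dividing MEFs (adjusted p = 0.374, 0% called, 29 at an unadjusted p under 0.05), -3.17 for stem cells minus contact-inhibited MEFs (adjusted p = 0.127, 0.407% called) and -0.94 for the knockout minus contact-inhibited MEFs (adjusted p = 0.631, 0% called, 43 unadjusted). The first became 3.95 (adjusted p = 0.00869) without stem cell course 2, and the second -4.55 (adjusted p = 0.00751) without stem cell course 1. The hour values depend on the library times and on the scaling. Without the last time the 5p value was 71.4, 24.7 and 21.2 h in the contact-inhibited and knockout courses and 2.78 h in stem cell course 1. Without the first time it reached the upper limit in stem cell course 1 and the lower limit of 0.25 h in dividing course 2. Without subtraction of the 0 h value contact-inhibited course 1 gave 56.0 h, and divided by input per standard the knockout gave 13.9 h. Counts of the 22, 24 and 26 nt spikes per standard fell over time, and per spike the 5p value reached the upper limit in all 3 non-dividing courses and was 12.5 and 7.15 h in dividing MEFs, while 3p read 7.50, 3.31 and 3.78 h and 0.25 h.

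Other hairpins with enough counts showed the early shift too. In each fibroblast course 86 to 95 hairpins had 20 or more counts on both arms, and the less abundant arm was higher in EU than in input at 2 and 4 h in 74 of 88, 75 of 95, 72 of 88, 68 of 86 and 76 of 95 (contact-inhibited 1 and 2, dividing 1 and 2, knockout). The median log2 shift was 2.34, 2.51, 1.89, 1.56 and 2.39, and miR-21a placed 44, 56, 71, 65 and 52 from the highest. Among these hairpins its early enrichment was near the middle in non-dividing cells and in the lower part in dividing ones. The minimum of 20 counts drops hairpins whose minor arm is scarce in EU, which favours upward shifts. The counts, medians and places are therefore descriptions.

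At the last time the hairpins still had median shifts of 0.59, 0.62, 0.54, 0.61 and 0.26 in the same order, whereas miR-21a stood at -2.16, -2.37, -2.26, -2.29 and -2.69. It was place 4 of 68, 3 of 80, 2 of 60, 3 of 59 and 1 of 65 from the lowest. The count minimum leaves out hairpins whose minor arm has few EU counts, so these places are descriptions.

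**Figure D4:**
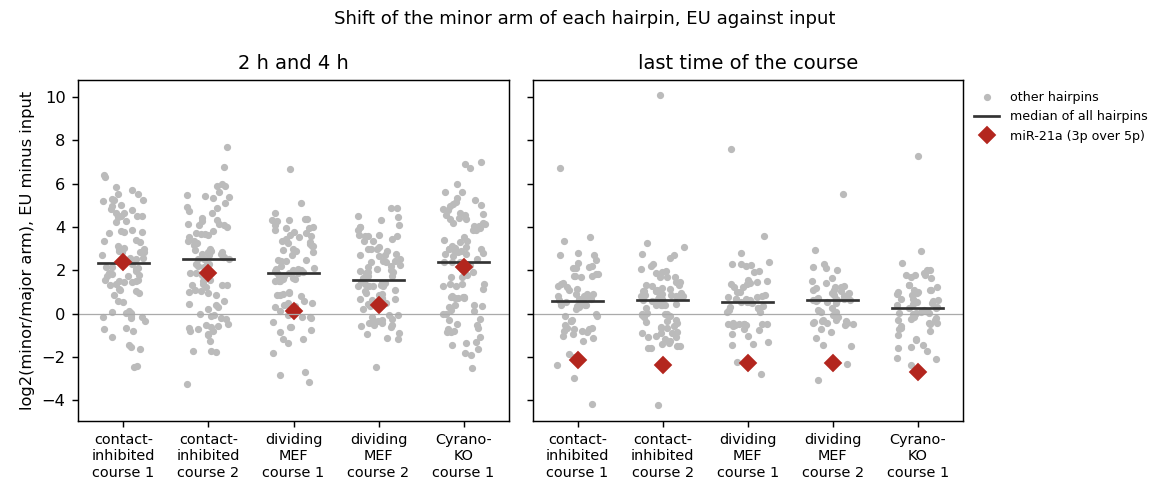
Log2 ratio of the less to the more abundant arm in EU minus that in input, 1 point per hairpin, by fibroblast course, at 2 and 4 h (left) and at the last time (right). Lines are medians, and the diamond is miR-21a, inside the spread early and near the bottom at the last time.

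The uridine content of the strands moves with these ratios. Across miRNAs the number of uridines correlated with the log2 ratio of EU to input CPM at the last time, with Spearman rho of 0.551 to 0.692 over 250 to 335 miRNAs of 1 library pair, a description across miRNAs. With its 4 uridines, 3p stood at -1.68, -1.79, -2.03, -2.08 and -1.83, and the medians of miRNAs with the same 4 were -0.98, -1.27, -0.87, -1.28 and -1.06. Of these, 4 of 27, 10 of 26, 3 of 29, 1 of 21 and 4 of 26 stood lower. With 8 uridines, 5p stood at 0.47, 0.58, 0.19, 0.18 and 0.83, and miRNAs with as many had medians of 0.28, 0.44, 0.53, 0.26 and 0.21. The part of uridine content in the strand difference was not tested.

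The poly(A) RNA libraries of the 3 wild-type lines (23030907 to 34093791 counts each) gave context for the host gene, regulators and targets. They are bulk samples, in which fewer cells of a type and less RNA per cell cannot be told apart. The 7 fibroblast markers summed to 17145 to 26900 CPM in MEFs and 844 to 944 CPM in stem cells, and 6 stem cell markers to 18.5 to 27.5 CPM and 3188 to 3297 CPM. The 4 epithelial markers summed to 1202 and 1216 CPM in stem cells and to 8.46 to 25.7 CPM in MEFs, and their part was not tested. The Mir21a gene itself was at 0 in all 6 libraries.

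Vmp1, an endoplasmic reticulum protein of autophagy whose gene holds the hairpin, stood at 79.9 and 60.5 CPM in contact-inhibited MEFs, 115 and 116 CPM in dividing MEFs and 61.3 and 62.4 CPM in stem cells. Dividing MEFs were the highest and the other lines overlapped. In edgeR it fell by 0.90 (log2, adjusted p = 0.00605) from dividing to contact-inhibited MEFs, where 40.6% of 18094 genes were called. It fell by 1.25 (adjusted p = 5.33e-04) from dividing MEFs to stem cells, where 60.8% were called. Stem cells differed from contact-inhibited MEFs by -0.35 (adjusted p = 0.0830, 75.9% called).

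Of the 20 tested members of a 21-gene list of the host and regulators of miR-21, 2 were higher and 8 lower in contact-inhibited than in dividing MEFs, with a median log2 of -0.33 (all genes 0, 40.6% called). Of 6 AP-1 genes on the list, Fosl1, Junb and Jun were called lower and Fos, Fosb and Jund did not pass (log2 -0.62, 1.17 and -0.44). Fosl1 stood at 3.51 and 2.17 CPM against 34.0 and 29.7 CPM, with no overlap (log2 -3.66, SE 0.29, adjusted p = 6.14e-04). Junb (-2.15, adjusted p = 0.00737) and Jun (-1.84, adjusted p = 0.00233) were also lower. Stat3, a transcription factor of the gene, was lower by less (-0.56, adjusted p = 0.0291). Etv5, an ETS-family transcription factor (0.74, adjusted p = 0.0199), and Hif1a, the oxygen-responsive factor (0.53, adjusted p = 0.0481), were higher, and both calls were lost without some libraries.

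In stem cells 2 of the 20 were higher and 16 lower than in dividing MEFs (median -1.78, all genes 0.06, 60.8% called). Fosl1 (-6.14, adjusted p = 1.10e-05), Jun (-5.47, adjusted p = 9.30e-06) and Fos (-3.90, adjusted p = 0.00248) were lower. Etv5 (4.33, adjusted p = 6.20e-06) and Rest, a repressor of neuronal genes (1.29, adjusted p = 1.51e-04), were higher. Against contact-inhibited MEFs 2 were higher and 13 lower (median -1.04, 75.9% of all genes called).

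Of 32 listed targets of miR-21, 29 were tested, and 13 were higher and 5 lower in contact-inhibited than in dividing MEFs (median 0.43). Over all 18094 genes, 40.6% were called, 3528 higher and 3812 lower. Without dividing library 2 the targets counted 5 higher and 5 lower of 30 tested. Ppara, a nuclear receptor of fat metabolism (3.03, adjusted p = 0.00409), Reck, an inhibitor of matrix proteases (2.39, adjusted p = 0.00467), and Nfib, a transcription factor (1.98, adjusted p = 0.00546), rose most, and the calls of Reck and Nfib were lost without some libraries. Rasgrp1, a Ras activator (-1.83, adjusted p = 0.00442), Tpm1, an actin-binding tropomyosin (-1.60, adjusted p = 0.00111), and Smad7, an inhibitor of TGF-beta signalling (-1.31, adjusted p = 0.00487), fell most. Ppara and Rasgrp1 were scarce in both lines. Ppara had 30 and 30 counts in contact-inhibited against 5 and 3 in dividing MEFs, and Rasgrp1 had 8 and 9 against 29 and 40. Pdcd4, an inhibitor of translation, stood at 64.6 and 67.4 CPM against 19.1 and 16.3 CPM (1.71, adjusted p = 0.00103). The lines did not overlap.

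In stem cells 6 of the 29 were higher and 16 lower than in dividing MEFs (median -0.91), where 60.8% of all genes were called (5488 higher, 5513 lower, median 0.06). Sox2, which is also a stem cell marker (6.54, adjusted p = 4.19e-06), Rasgrp1 (4.58, adjusted p = 1.07e-05) and Spry4, an inhibitor of growth factor signalling (3.40, adjusted p = 6.68e-05), were higher. Timp3, a protease inhibitor (-6.40, adjusted p = 2.48e-05), Tpm1 (-5.74, adjusted p = 3.04e-06) and Tgfbr2, a TGF-beta receptor (-5.47, adjusted p = 1.76e-05), were lower. Pdcd4 stood at 10.6 and 10.9 CPM, below both MEF lines. Against contact-inhibited MEFs 7 were higher and 18 lower (median -1.47), where 75.9% of all genes were called (median 0.06).

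Of 14 genes of miRNA processing and tailing, 1 was higher and 1 lower between the MEF lines (median 0.05), where 40.6% of all genes were called. Ago3, an Argonaute, was higher (0.87, adjusted p = 0.00899) and Xpo5, which exports hairpins from the nucleus, was lower (-1.0, adjusted p = 0.00218) in contact-inhibited MEFs. In stem cells 7 were higher and 4 lower than in dividing MEFs (median 0.42), against 60.8% of all genes called. Tarbp2, a Dicer partner (1.47, adjusted p = 0.00137), Drosha, the nuclear hairpin nuclease (1.09, adjusted p = 4.63e-04), and Parn, a deadenylase (0.84, adjusted p = 0.0103, lost without some libraries), were higher. Ago4 (-4.71, adjusted p = 3.15e-04), Zswim8, the ubiquitin ligase adaptor of target-directed miRNA decay (-3.0, adjusted p = 8.26e-05), and Ago3 (-1.98, adjusted p = 1.01e-04) were lower. Against contact-inhibited MEFs 8 were higher and 5 lower (median 0.49), against 75.9% of all genes called.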

How the data were processed

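Small RNA and poly(A) RNA tables hold raw counts per miRNA or gene, as the authors deposited them. Per the submitters' processing notes, cutadapt was used throughout, and STAR 2.4, HTSeq 0.9.1 and mm10 (GRCm38) in all but the Cyrano-knockout and the second stem cell courses, for which the notes name cutadapt only. Per the labels' protocols, synthetic standards were mixed into each library and adaptors carried random bases. Whether counts were collapsed by those bases is not given in the sources used here. For dividing course 2, 5 EU samples were sequenced a second time, and the deposited column may hold either run or both. The same 1013 miRNAs were used in every table, and 8 other features (standards, spikes and the like) stayed out of the totals.

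Both miR-21a strands and all gene lists were chosen with earlier results of these data known. Input counts summed over a course, and EU counts summed over 2 and 4 h, were tested with edgeR 4.0.16 in R 4.3.3 (TMM, filterByExpr, quasi-likelihood, Benjamini-Hochberg over all miRNAs), the 7 courses sharing 1 dispersion. Trends used log2(hours + 1) with the course as a term, so that a slope is the log2 change per doubling of (hours + 1). They were fitted library by library, so their p-values measure scatter within courses. Half-lives were fitted to log values with weights from the counting error and an added error of 0.2 natural log units, on EU counts per standard less the 0 h value where one existed, over a grid from 0.25 h to 10 times the course's length, and compared with limma 3.58.1. Strand ratios were tested by exact sign-flip permutation over courses. The mRNA counts were tested likewise with edgeR. DESeq2 1.42.0 was the alternative. The edgeR fits of miRNAs and mRNAs, the half-life fit and the limma comparison were checked on simulated data. The strand ratios and sequence comparisons were not. Within a course EU and input come from the same cells and were also fitted with the course as a block. The named miRNAs are the 3 closest to each strand and the 3 most abundant per line. The named mRNAs are Vmp1 and, from each list, up to 3 with the largest change in each direction among those called. Stat3, Pdcd4 and, between the MEF lines, Fos, Fosb and Jund were named after their values were seen. Hairpins were folded with RNAfold 2.7.2, and sequences are from RefSeq (GRCm38.p6), where 831 of the 1013 miRNAs matched. Gene symbols were found for 54409 of 54532 gene IDs and for 92 of 92 listed genes. Intervals of shares and count ratios cover counting error only, and half-life intervals also cover the added error of 0.2. Library totals and their range stand with the results.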

Additional observations from a re-analysis of the deposited data

Results flagged for a closer look

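The difference of labelled from standing miR-21a-5p differed between stem cells and contact-inhibited MEFs by 2.41 on the log2 scale (stem cells minus contact-inhibited MEFs of EU minus input at 2 and 4 h), by an edgeR test of that difference itself (adjusted p = 0.0473). The EU to input ratio of CPM was 1.28 and 1.01 in the 2 stem cell courses and 0.555 and 0.690 in the 2 contact-inhibited courses, without overlap. The call was lost on leaving out any 1 of the 7 courses, with values from -0.68 to 2.41. With library totals in place of TMM the value was 0.90 (adjusted p = 0.607), and over all its alternatives the adjusted p ran from 2.87e-11 to 1.00.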

How the results depend on the processing

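Standing and new levels of both strands in stem cells stayed below both wild-type fibroblast lines under each of 15 alternatives. The synthetic standards were recovered at very different amounts between courses, and scaling by them gave, for 5p and 3p, standing differences of 0.67 and 0.26 (contact-inhibited minus dividing), -13.23 and -12.39 (stem minus dividing) and -13.90 and -12.65 (stem minus contact-inhibited), and new differences of -0.12 and 0.29, -7.21 and -8.10, and -7.09 and -8.38, none called. For EU against input that scaling was not run. Standard counts ran from 103020 to 355542 in EU and from 80 to 320 in input in contact-inhibited course 1. In course 2 they ran from 183 to 572 and from 17632 to 24584. Fits library by library gave knockout differences of -1.35 and -2.09 (standing) and -0.72 and -1.86 (new). The new 5p difference of contact-inhibited from dividing MEFs was -1.88 with the course number as a replicate block, -2.59 scaled by the spikes, -0.40 at 24 h and -1.85 at 1, 2 and 4 h, and the 3p one was 0.85 at 24 h.

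EU against input moved with the scaling, the filter, the times summed and the courses included, and the cause was not tested. In contact-inhibited MEFs 5p was -0.73 with totals and -0.41 at 24 h, and 3p was 1.00 in DESeq2, 1.47 with totals, 0.56 without a filter and 1.44 with course block and totals. In the knockout 5p was -0.77 in DESeq2, -0.021 with totals, with or without the block, -0.59 without a filter and 0.41 at 24 h, and 3p was -0.78 at 24 h and 2.12 with block and totals. In dividing MEFs 5p was 0.053 in DESeq2 and 0.33 with totals, with or without the block, and 3p was -0.039 without a filter and -1.79 at 24 h. In stem cells 5p was -0.065 in DESeq2, -1.61 without a filter and -0.70 at 24 h. The 5p interaction of contact-inhibited with dividing MEFs was -1.94 with the block and -1.02 with block and totals. That of stem cells with contact-inhibited MEFs was 1.12 in DESeq2, 0.90 with totals, 0.017 without a filter and -0.29 at 24 h.

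Input slopes without the last time were -0.013 and -0.061 (5p, 3p) in contact-inhibited and 0.11 and 0.20 in knockout MEFs. The knockout 5p slope in DESeq2 was 0.28 and lost its call (adjusted p = 0.109). Stem cell slopes were 0.0052 without the replicate block and 0.0061 without 0 h for 5p, and 0.092 without 0 h for 3p. EU slopes of 5p in dividing MEFs were -0.028 in DESeq2 and -0.053 without the block, -0.085 in stem cells without the last time, and -0.48 for knockout 3p, also without the last time. The strand shift was 1.12 at 4 h (higher in 5 of 7 courses, exact sign-flip p = 0.0625, both dividing courses turned to -0.53), -1.32 at 24 h, 1.39 in the fibroblast courses and -0.93 in those at 24 h.

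Leaving out each course in turn moved standing 5p between -0.67 and 0.13 (contact-inhibited minus dividing), standing knockout 5p between -1.53 and -0.73 and 3p between -2.31 and -1.51, and new 5p between -2.27 and -1.60 (contact-inhibited minus dividing) and between -1.11 and -0.25 (knockout). EU against input ran for 5p from -2.20 to -0.81 (contact-inhibited), -2.04 to -0.51 (knockout), -0.31 to 0.062 (dividing) and -1.49 to 0.20 (stem cells), for 3p from -0.046 to 1.05 (contact-inhibited) and -0.18 to 0.39 (dividing), and for the stem minus contact-inhibited interaction from -0.68 to 2.41. Slopes ran from -0.048 to 0.014 (input 5p, dividing), -0.045 to 0.046 (input 3p, stem cells) and -0.060 to -0.040 (EU 5p, dividing). Half-life contrasts ran from 4.89 to 6.59, 1.19 to 3.95 and -4.55 to -1.80. Called genes ran from 10 (5 higher and 5 lower, without dividing library 2) to 21 (targets, MEF lines), 7 to 12 and 7 to 14 (processing, stem cells against dividing and contact-inhibited MEFs), and Vmp1 from -0.54 to -0.22 (stem minus contact-inhibited).

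DESeq2 called more miRNAs than edgeR: 24 higher and 10 lower against 7 and 0 (standing, knockout), 39 and 20 against 9 and 7 (new, MEF lines), and in EU against input 56 and 69 against 4 and 60 (knockout), 74 and 53 against 18 and 21 (dividing), 30 and 25 against 6 and 0 (stem cells) and 12 and 19 against 4 and 0 (stem minus contact-inhibited). Course numbers of different lines were not shown to pair: same-numbered courses deviated together with r of 0.28, 0.12 and 0.17, over 2 numbers. Spike scaling of half-lives could be fitted between lines only for stem cells minus dividing MEFs (0.32), and 3p half-lives at the limit gave no contrast. Alternatives by spikes, at 24 h for EU against input, without the last time, with block and totals together, over the fibroblast courses, and library by library in EU were chosen after seeing the data. Depth limits 3p in EU most, with 17 to 974 counts per fibroblast library after 0 h.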
